A study of Homo sapiens with 10 samples.

Results

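The HOX genes of the 4 human clusters were followed across 10 expression arrays of 2 neuroblastoma cell lines, with and without exposure to a drug conjugate. Members were the probe sets whose platform symbol is HOXA, HOXB, HOXC or HOXD followed by digits alone, with the brightest kept per symbol. The rule found 23 probe sets, 1 for each of 23 genes, among the 21448 gene probe sets tested. RefSeq lists 39 HOX genes in these clusters. The members covered 1 of 11 genes of HOXA on chromosome 7, 8 of 10 genes of HOXB on chromosome 17, 6 of 9 genes of HOXC on chromosome 12 and 8 of 9 genes of HOXD on chromosome 2. The other 16 genes were not analysed here, 10 of them in HOXA, 2 in HOXB, 3 in HOXC and 1 in HOXD. Statements on the HOXA cluster therefore rest on HOXA2 alone.

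SK-N-FI and SK-N-AS are established human neuroblastoma lines, although the labels of SK-N-AS also use the word primary. Both were grown in IMDM with 10% fetal bovine serum, and the labels name no genetic change in either. SK-N-FI had 2 control arrays (1 and 2), exposed to PBS, and 2 treated arrays (1 and 2), exposed to 30 µM BG-P1600-TAT for 48 h. SK-N-AS had 3 PBS control arrays (25, 26 and 27) and 3 treated arrays (28, 29 and 30) at the same dose and time. Here the titles call the agent BG-P-TAT, read as the same conjugate. It is described in the series title as a PEGylated agent with the norepinephrine transporter and the integrin αvβ3 as its targets. Each line stands for 1 culture system only, and since no label says whether the SK-N-AS arrays stem from different cultures, the p-values reflect differences among arrays that may be technical in part. In bulk RNA a lower signal in all cells and a smaller share of expressing cells cannot be told apart.

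HOX genes encode homeodomain transcription factors that give cells along the body axis their position. Within a cluster they lie in the order of their paralogue numbers, and low numbers are used toward the head and early, high numbers toward the tail and late. Retinoic acid, trithorax proteins (which keep genes active) and polycomb proteins (which keep them silent) set which of them are on, and the proteins bind DNA together with TALE homeodomain partners such as PBX and MEIS. Neuroblastoma arises from neural crest cells of the sympathetic lineage, and some of its cells respond to retinoic acid. The response of these lines to retinoic acid was not tested.

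The values are log2 signals, and a signal is called above background here where it passes the 95th percentile of the array's own negative controls, a threshold that ran from 6.75 to 8.26. Per array, 38.3% to 44.3% of gene probe sets passed it in SK-N-FI, and 32.9% to 39.7% did in SK-N-AS. Array medians differed between the lines, and a line difference on the deposited values carries an offset, with a median of −0.61 over all probe sets when SK-N-FI is subtracted from SK-N-AS, and of 0.04 after quantile normalization over 10 arrays. Of the 10 noradrenergic neuroblastoma markers measured, 9 were above background on every SK-N-FI array and 5 on every SK-N-AS array. Of 10 mesenchymal markers, 3 and 7 were. No Schwann cell marker (of 4) and no endothelial marker (of 4) was above background on any array. The leukocyte marker PTPRC was above it on 5 of 6 SK-N-AS arrays, while CD3E and CD14 were on none, and its part in the HOX values was not tested.

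Most HOX probe sets gave no signal above background in either line. In SK-N-FI, 4 of 23 (17.4%) were above background on every array: HOXB2, HOXC9, HOXC10 and HOXD8. Over all gene probe sets the share was 38.1%. In SK-N-AS, HOXD8 alone (4.35%) was above background on every array, against 30.9% of all gene probe sets, and HOXC9 was above it on 3 of 6 arrays. The other 19 genes (82.6%) were above background on no array, against 50.2% of all gene probe sets. These counts depend on where the background is set. With the median of the negative controls plus 3 MAD, HOXB2, HOXC9 and HOXD8 were above it on every SK-N-FI array and no member was on every SK-N-AS array. With the 99th percentile no member was above it on every array of either line, where 14% and 8.1% of all gene probe sets were.

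**Figure D1:**
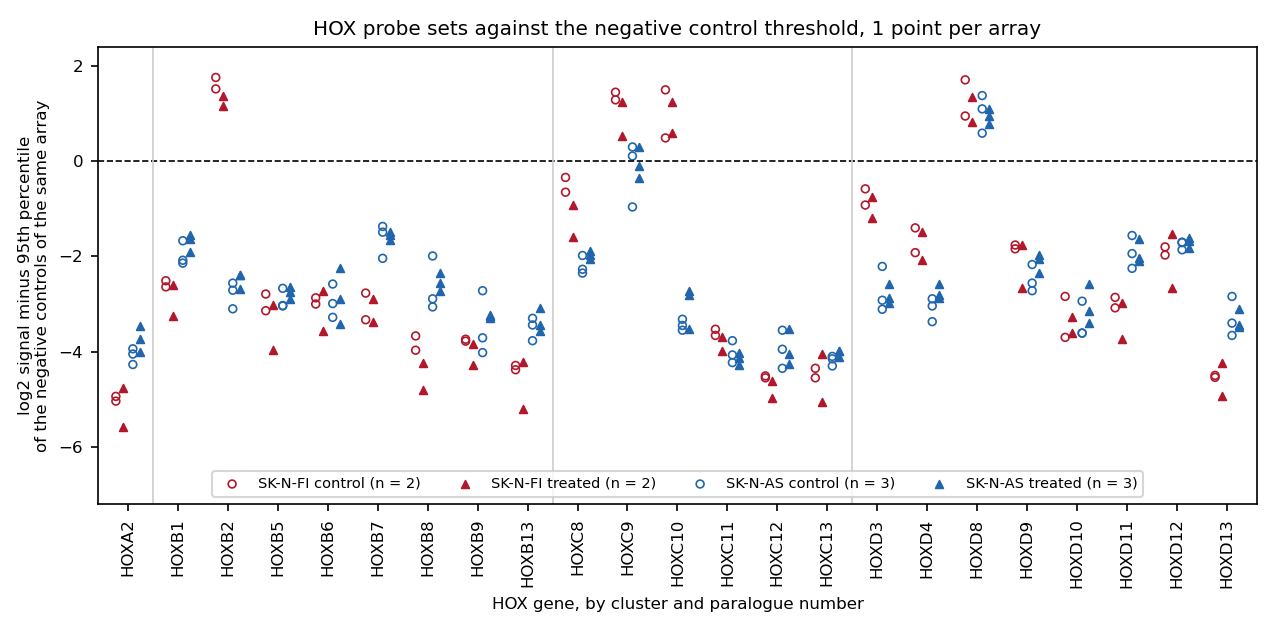
Log2 signal of each HOX probe set minus the 95th percentile of the negative controls of the same array (dashed line at 0), 1 point per array. Open circles are control arrays and triangles treated arrays, red for SK-N-FI and blue for SK-N-AS. Only HOXB2, HOXC9, HOXC10 and HOXD8 lie above the line on all 4 SK-N-FI arrays, and only HOXD8 on all 6 SK-N-AS arrays.

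By paralogue number, the genes above background on every SK-N-FI array were 1 of 5 with the numbers 1 to 4 (HOXB2), 1 of 6 with 5 to 8 (HOXD8), 2 of 5 with 9 and 10 (HOXC9 and HOXC10), and 0 of 7 with 11 to 13. By cluster they were 0 of 1 in HOXA, 1 of 8 in HOXB, 2 of 6 in HOXC and 1 of 8 in HOXD. Among the measured members, only HOXC9 and HOXC10 were above background as a run of neighbouring genes. HOXB3, which follows HOXB2, was not analysed, so whether HOXB2 stands alone cannot be told. Among genes sharing a number, HOXC9 was above background in SK-N-FI and HOXB9 and HOXD9 were not, HOXC10 was and HOXD10 was not, and HOXD8 was and HOXB8 and HOXC8 were not. Probe sets differ in their response, so these are statements about each signal against background and not an order of transcript amounts.

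HOXB2, which acts in the hindbrain, gave log2 signals of 9.12 and 9.19 on the SK-N-FI control arrays and 9.41 and 8.96 on the treated arrays. In SK-N-AS its signals were 4.13, 4.32 and 4.19 on control arrays and 4.53, 4.32 and 4.38 on treated arrays, with no array above background. The lines did not overlap on the deposited values, where 47.7% of all gene probe sets were separate with SK-N-FI higher. Treated and control arrays overlapped within each line. The other 7 measured HOXB genes, HOXB1, HOXB5, HOXB6, HOXB7, HOXB8, HOXB9 and HOXB13, lay below background on every array of both lines.

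HOXC9, a gene of thoracic identity that is also known for its induction by retinoic acid in neuroblastoma cells, gave 8.90 and 8.89 on SK-N-FI control arrays and 8.79 and 8.82 on treated arrays. Its SK-N-AS signals spread more widely, at 7.34, 6.08 and 7.05 on control arrays and 6.56, 7.31 and 6.65 on treated arrays, and were above background on arrays 25, 27 and 29. HOXC10, a gene of lumbar identity, gave 8.10 and 8.93 on SK-N-FI control arrays and 8.84 and 8.83 on treated arrays. In SK-N-AS it gave 3.78, 3.48 and 3.44 on control arrays and 4.11, 4.28 and 3.23 on treated arrays, all below background. On the deposited values both genes thus lay higher on every SK-N-FI array than on any SK-N-AS array. This held for 9 of 23 members and 47.7% of all gene probe sets. By rank within each array HOXC9 overlapped between the lines. Its percentile was 68.2 on SK-N-AS control array 25 and 65.8 to 67.1 on SK-N-FI arrays. HOXC8, a gene of the lower neck and upper trunk and of the forelimb level of the spinal cord, lay below background on every array, with 6.96 and 7.09 on SK-N-FI control arrays, 6.66 and 6.68 on SK-N-FI treated arrays and 4.68 to 5.05 in SK-N-AS. HOXC11, HOXC12 and HOXC13, the tail end of the cluster, lay below background throughout.

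HOXD8, a gene of the middle of its cluster, gave 8.56 and 9.14 on SK-N-FI control arrays and 9.07 and 8.94 on treated arrays. In SK-N-AS it gave 8.33, 7.62 and 8.13 on control arrays and 7.71, 7.97 and 7.86 on treated arrays. All 10 values were above background, which held for no other member. HOXD3 and HOXD4, toward the head end of the cluster, gave 6.69 to 7.07 and 5.52 to 6.21 on the SK-N-FI arrays and 3.94 to 4.54 and 3.66 to 4.19 on the SK-N-AS arrays, below background on every array. The gene models of HOXD3 and HOXD4 overlap in RefSeq, so their signals may not be separate. HOXD9 ran from 5.59 to 5.82 on the SK-N-FI arrays and from 4.19 to 4.94 on the SK-N-AS arrays, also below background. HOXD10, HOXD11, HOXD12 and HOXD13 were below it on every array as well.

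The 250 bases before the listed transcription start were read from RefSeq (GRCh38.p14) for 9 of the 23 members. These 3 are shown because they are HOXD genes with different signals: HOXD8, above background in both lines, HOXD13, at the tail end and below it in both, and HOXD3, whose signal differed most between the lines among members with a sequence. Capitals mark TAAT, the core that most homeodomains bind, on either strand, so that the other strand reads ATTA. The windows are chr2:176129455-176129704 for HOXD8, chr2:176092471-176092720 for HOXD13 and chr2:176157057-176157306 for HOXD3, all on the + strand.
HOXD8: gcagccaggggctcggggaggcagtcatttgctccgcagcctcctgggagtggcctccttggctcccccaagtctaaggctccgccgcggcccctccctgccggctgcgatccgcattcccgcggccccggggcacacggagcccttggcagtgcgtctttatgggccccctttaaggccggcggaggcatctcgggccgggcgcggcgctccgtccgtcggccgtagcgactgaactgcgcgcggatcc
HOXD13: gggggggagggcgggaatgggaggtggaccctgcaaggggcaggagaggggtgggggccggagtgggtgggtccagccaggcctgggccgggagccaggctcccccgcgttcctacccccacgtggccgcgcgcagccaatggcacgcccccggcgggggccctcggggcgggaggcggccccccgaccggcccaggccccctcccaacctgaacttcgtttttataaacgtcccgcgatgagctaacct
HOXD3: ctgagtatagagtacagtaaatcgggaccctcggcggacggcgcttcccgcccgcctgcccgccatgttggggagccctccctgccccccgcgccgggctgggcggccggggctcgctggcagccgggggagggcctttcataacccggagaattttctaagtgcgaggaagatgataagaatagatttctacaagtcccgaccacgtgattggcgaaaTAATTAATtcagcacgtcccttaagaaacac

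The HOXD8 window held 72.4% G and C and 28 CpG dinucleotides, the HOXD13 window 74.0% and 21, and the HOXD3 window 59.2% and 21. Over 35116 windows of the same length in the table the medians were 58.0% and 11. TAAT was found 3 times in the HOXD3 window, all in a single run of overlapping matches, and not in the windows of HOXD8 and HOXD13. Of all windows, 47.4% held it at least once. The HOXD8 and HOXD13 windows were alike in G and C and in lacking TAAT, and differed in CpG count (28 and 21). HOXD8 was above background on all 10 arrays and HOXD13 on none, and any link to the windows was not tested.

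The control arrays of the lines were compared to ask which members differ between the lines before treatment. On the deposited values, limma called 9 of 23 HOX genes with a higher value in SK-N-FI, and 3 with a higher value in SK-N-AS (Benjamini-Hochberg adjusted p below 0.05 over all probe sets). Of all probe sets, 47.8% were called higher in SK-N-FI and 11.5% higher in SK-N-AS, so the members' counts lie near the background and are read only gene by gene. After quantile normalization over 10 arrays the counts were 7 and 5, against 22.5% and 24.1% of all probe sets. The median difference (SK-N-AS minus SK-N-FI) was −0.47 over the members and −0.61 over all probe sets, and −0.15 and 0.04 after quantile normalization.

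HOXB2 was higher in SK-N-FI, at 9.16 ± 0.05 (SD, n = 2) against 4.21 ± 0.10 (SD, n = 3) in SK-N-AS control arrays. The log2 difference was −4.94 (SE 0.22, 95% interval −5.42 to −4.47, limma adjusted p = 3.13e-09) and −3.92 after quantile normalization. HOXC10 was higher in SK-N-FI as well, at 8.52 ± 0.59 (SD, n = 2) against 3.57 ± 0.19 (SD, n = 3), a difference of −4.95 (SE 0.33, 95% interval −5.67 to −4.23, limma adjusted p = 1.06e-07) and of −4.03 after quantile normalization. Since both were below background in SK-N-AS, their fold is a lower bound, taken against the higher of the threshold and the own signal on each SK-N-AS control array. HOXB2 was at least 4.45-fold higher in SK-N-FI (at least 1.49-fold after quantile normalization). HOXC10 was at least 2.85-fold higher, and after quantile normalization at least 1.01-fold, which leaves almost no bound. These bounds hold for the 95th percentile as threshold. With the 99th percentile neither gene was above background on every SK-N-FI array, and with the median plus 3 MAD HOXC10 was not.

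HOXC9, above background on 3 of the 6 SK-N-AS arrays, and HOXD8, above it on all 6, depended on the scaling. HOXC9 stood at 8.89 ± 0.00453 (SD, n = 2) in SK-N-FI and 6.82 ± 0.66 (SD, n = 3) in SK-N-AS control arrays, a log2 difference of −2.07 (SE 0.35, limma adjusted p = 0.000225). After quantile normalization it was −0.57 and did not pass (limma adjusted p = 0.29). Neither value is a measured fold, since HOXC9 was below background on SK-N-AS control array 26. HOXD8 stood at 8.85 ± 0.42 (SD, n = 2) and 8.03 ± 0.37 (SD, n = 3), a difference of −0.82 (SE 0.27, limma adjusted p = 0.0174). After quantile normalization its sign turned, to 0.79 (limma adjusted p = 0.0361), so no direction between the lines is given for HOXD8. On the deposited values its call was also lost without SK-N-FI control array 2 (−0.53, limma adjusted p = 0.198) and without SK-N-AS control array 26 (−0.62, limma adjusted p = 0.0666).

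Another 8 genes were called on the deposited values although they lay below background on every array of both lines. They are named after their values were seen, and no fold is given for them. The signals of HOXD3 (−2.51), HOXC8 (−2.22), HOXD4 (−1.96), HOXD9 (−1.20) and HOXC11 (−0.95, the log2 difference in each case) were higher in SK-N-FI. All 5 were also called after quantile normalization, at −1.91, −1.48, −1.62, −0.83 and −0.85 in the same order. The signals of HOXB7 (0.90), HOXD13 (0.71) and HOXB8 (0.65) were higher in SK-N-AS, at 1.26, 0.83 and 0.78 after quantile normalization, where HOXD11 (0.83) was called too. The count higher in SK-N-AS fell to 0 without SK-N-FI control array 1, and to 1 without SK-N-FI control array 2 or SK-N-AS control array 27. The remaining 11 genes were not called on the deposited values.

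**Figure D2:**
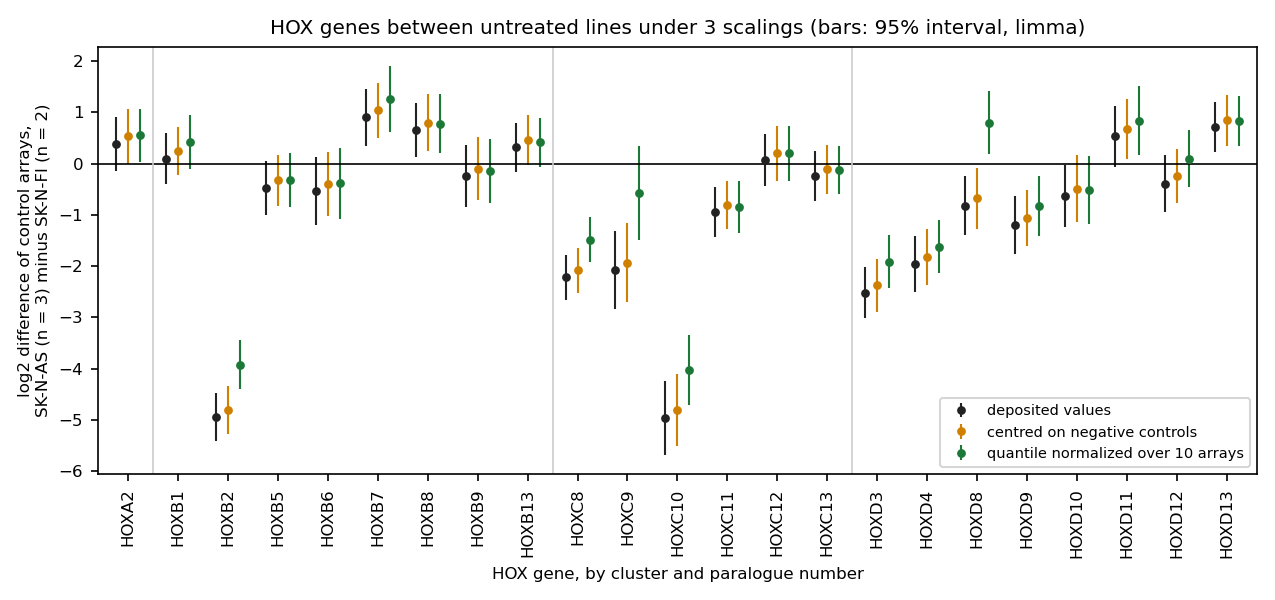
Log2 difference of each HOX gene between control arrays, SK-N-AS (n = 3) minus SK-N-FI (n = 2), with limma's 95% interval, on the deposited values (black), after centring each array on its negative controls (orange) and after quantile normalization over 10 arrays (green). HOXB2 and HOXC10 lie near −5 on the deposited values and near −4 after quantile normalization, while HOXD8 lies below 0 in the first 2 and above 0 in the last.

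The treated arrays were compared between the lines in the same way. On the deposited values limma called HOXB2, HOXC10, HOXC9 and HOXD8 there too. HOXB2 and HOXC10, below background in SK-N-AS, were at least 4.89-fold and at least 3.85-fold higher on the SK-N-FI treated arrays (1.70-fold and 1.37-fold after quantile normalization). These bounds too hold for the 95th percentile as threshold. The log2 difference was −1.97 for HOXC9, whose SK-N-AS signal was above background on only 1 treated array, and −1.16 for HOXD8. Neither difference was fitted after quantile normalization on the treated arrays, so no direction is given for HOXD8 here either. The share of all probe sets called on the treated arrays was not counted. The treated arrays are separate arrays of the same 2 lines, with the same offset. Of the 3 genes with higher signals on SK-N-AS control arrays, all of them below background, only HOXB8 (0.95) was called there, and HOXB7 (0.55, limma adjusted p = 0.083) and HOXD13 (0.23, limma adjusted p = 0.411) were not.

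The partners that bind DNA with HOX proteins had clear signals in both lines. Of 7 TALE genes measured (of 9 listed), 6 were above background on every SK-N-FI array and 5 on every SK-N-AS array, and limma called 4 in favour of SK-N-FI and 1 in favour of SK-N-AS (2 and 3 after quantile normalization). Of all probe sets, 38.1% and 30.9% were above background on every array of the line, below the TALE shares of 85.7% and 71.4%. In those directions 47.8% and 11.5% of all probe sets were called, and 22.5% and 24.1% after quantile normalization. The TALE calls on the deposited values thus lie near the background. PBX3, which binds beside HOX proteins, stood at 10.93 ± 0.23 (SD, n = 2) in SK-N-FI and at 6.30 ± 0.37 (SD, n = 3) in SK-N-AS control arrays, below background on all 6 SK-N-AS arrays. It was at least 15.2-fold higher in SK-N-FI, or at least 4.86-fold after quantile normalization (limma adjusted p = 4.05e-08 and 3.97e-06). These PBX3 bounds hold for the 95th percentile as threshold. With the 99th percentile PBX3 was not above background on every SK-N-FI array. That threshold was 11.4 on SK-N-FI control array 1, and the highest SK-N-FI signal of PBX3 was 11.13. MEIS1, a partner of PBX and HOX proteins, was higher in SK-N-AS, at 10.42 ± 0.21 (SD, n = 3) against 9.30 ± 0.05 (SD, n = 2), a log2 difference of 1.12 (limma adjusted p = 0.00117) and of 2.73 after quantile normalization. MEIS3 (−2.11) and PBX2 (−1.63) were called higher in SK-N-FI on the deposited values, but at −0.40 and 0.05 after quantile normalization neither passed.

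Genes that set HOX expression were listed by role. Of 13 trithorax-side genes, 11 were above background on every SK-N-FI array and 6 on every SK-N-AS array, and limma called 12 in favour of SK-N-FI and 0 in favour of SK-N-AS (5 and 1 after quantile normalization). The shares of all probe sets were 38.1% and 30.9% above background, 47.8% and 11.5% called, and 22.5% and 24.1% called after quantile normalization. KMT2A, the histone methyltransferase of the trithorax group best known for keeping HOX genes on, stood at 11.98 ± 0.13 (SD, n = 2) in SK-N-FI and at 6.33 ± 0.57 (SD, n = 3) in SK-N-AS, where it was below background on all 6 arrays. It was at least 31.4-fold higher in SK-N-FI, or at least 10.7-fold after quantile normalization (limma adjusted p = 3.34e-08 and 2.26e-06). These KMT2A bounds hold for the 95th percentile as threshold, 6.75 to 7.23 on the SK-N-AS control arrays. The 99th percentile was 9.41 to 10.8 there, and the median plus 3 MAD 7.83 to 8.1. With either, the bound on the deposited values would be smaller. PSIP1, a chromatin tether of KMT2A, differed by −5.24 on the log2 scale (−3.92 after quantile normalization), BPTF, a nucleosome remodeller, by −4.08 (−2.46), and KAT6A, a histone acetyltransferase, by −2.84 (−1.16), and all 3 were called under both scalings. DOT1L and ASH2L were called on the deposited values only.

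Of 12 polycomb-side genes measured (of 18 listed), 8 were above background on every array of SK-N-FI and likewise 8 in SK-N-AS, and limma called 11 in favour of SK-N-FI and 0 in favour of SK-N-AS (5 and 1 after quantile normalization), beside the same shares of all probe sets. SUZ12, a core subunit of the complex that methylates histone H3, stood at 11.66 ± 0.01 (SD, n = 2) in SK-N-FI and at a mean of 6.15 on the SK-N-AS control arrays. Its signal ran from 4.60 to 7.71 over the 6 SK-N-AS arrays and was above background on 2 of them. Its mean signal differed by −5.52 on the log2 scale (limma adjusted p = 2.26e-05) and by −4.17 after quantile normalization, which is no measured fold, since 4 of the 6 SK-N-AS arrays were below background. PHC3 (−4.15 and −2.56), EZH2, the methyltransferase of that complex (−3.46 and −1.88), PHC1 (−3.10 and −1.49) and the histone binder RBBP4 (−2.27 and −0.87) were called higher in SK-N-FI under both scalings. Whether the levels of these chromatin genes bear on the HOX signals was not tested.

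Of 11 upstream regulators measured (of 14 listed), RARA, a retinoic acid receptor, and RXRB, a partner of such receptors, were above background on every array of both lines. CDX1, CDX2 and CDX4, homeobox activators of HOX genes, and CYP26A1, CYP26B1 and CYP26C1, which break down retinoic acid, were above it on none. In this list limma called 1 gene in favour of SK-N-FI and 3 in favour of SK-N-AS (0 and 5 after quantile normalization), where 47.8% and 11.5% of all probe sets were called (22.5% and 24.1%). RXRB, at −2.17 on the deposited values, was at −0.45 after quantile normalization and no longer called. None of 18 other homeobox genes near HOX in descent was above background on every array of a line. Of 24 noncoding genes of the clusters, HOXA-AS3 and HOXB-AS3 were measured, and both were below background on every array.

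The genes that flank the clusters gave another pattern. For each cluster the 4 nearest protein-coding genes with a probe set on either side were taken from the RefSeq order, 32 in all. Of these, 23 (71.9%) were above background on every SK-N-FI array and 22 (68.8%) on every SK-N-AS array, against 17.4% and 4.35% of the HOX genes. The shares by cluster in SK-N-FI were 5 of 8 beside HOXA, 6 of 8 beside HOXB, 6 of 8 beside HOXC and 6 of 8 beside HOXD. EVX1 and EVX2, homeobox genes at the tail ends of HOXA and HOXD, were below background on every array. In the comparison of control arrays limma called 18 neighbours in favour of SK-N-FI and 3 in favour of SK-N-AS (6 and 8 after quantile normalization). Of all probe sets, 47.8% and 11.5% were called in those directions (22.5% and 24.1% after quantile normalization), so the neighbours' calls lie near the background. ATF2 (−3.54) and LNPK (−3.35), beside HOXD, and CBX1 (−2.44), beside HOXB, were called under both scalings. The difference between neighbours and HOX genes in the share above background is a description of these probe sets.

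**Figure D3:**
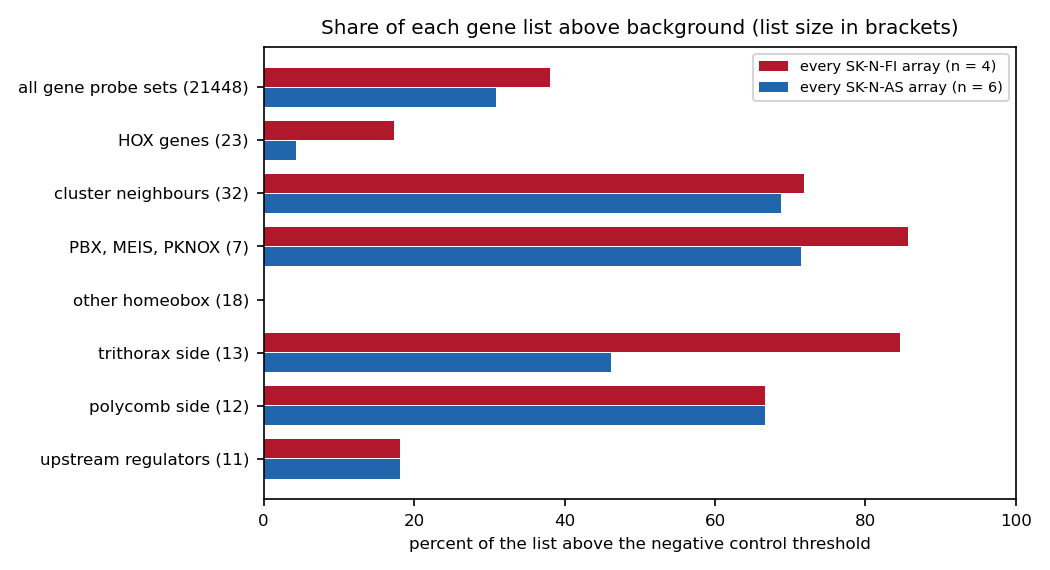
Percent of each gene list above the negative control threshold on every array of SK-N-FI (red, n = 4) and of SK-N-AS (blue, n = 6), with the number of measured genes in brackets. HOX genes stand at 17.4% and 4.35%, below all gene probe sets (38.1% and 30.9%), and the cluster neighbours at 71.9% and 68.8%.

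The question the series design states is which genes respond to the conjugate. No HOX gene was called in either line. In SK-N-FI limma called 0 of 23 members and 0% of all 21448 probe sets, and 0 members had an unadjusted p below 0.05, where 2.85% of all probe sets did. In SK-N-AS it called 0 of 23 members and 0% of all probe sets, with 0 members and 2.60% of all probe sets below an unadjusted p of 0.05. The members' log2 changes ran from −0.36 to 0.33 in SK-N-FI and from −0.23 to 0.31 in SK-N-AS. The 95% interval lay within a 2-fold change in both directions for 22 of 23 members in SK-N-FI (84.9% of all probe sets) and for 23 of 23 in SK-N-AS (82.1%). For the 19 genes below background on every array this limits the signal and says little about the transcript.

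Among the members above background, the intervals bound the change directly. HOXB2 had a log2 change of 0.03 (95% interval −0.53 to 0.58) in SK-N-FI. There HOXC9 had a log2 change of −0.09 (−0.57 to 0.39) and HOXC10 of 0.32 (−0.38 to 1.02), the only interval that reached past 2-fold. The HOXC10 control arrays were 8.10 and 8.93, and its treated arrays lay within that range. HOXD8 had a log2 change of 0.16 (−0.45 to 0.76) in SK-N-FI and of −0.18 (−0.72 to 0.35) in SK-N-AS. HOXC9, above background on 3 of 6 SK-N-AS arrays, had a log2 change of 0.02 there (−0.78 to 0.81), which limits the signal only. In each of these cases treated and control arrays overlapped, except for HOXC9 in SK-N-FI, where 8.79 and 8.82 lay under 8.89 and 8.90.

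The smallest p-values in SK-N-FI belonged to HOXC8 (log2 change −0.36, 95% interval −0.85 to 0.13), HOXD13 (0.33, −0.15 to 0.82) and HOXB8 (−0.30, −0.80 to 0.19), each with limma adjusted p = 1. In SK-N-AS they belonged to HOXC11 (−0.23, −0.70 to 0.23), HOXD4 (0.23, −0.25 to 0.72) and HOXC10 (0.31, −0.36 to 0.97), each with limma adjusted p = 1.00. All 6 were below background on every array of that line. The ranges of treated and control arrays were separate for 8 of 23 members in SK-N-FI, 5 higher (HOXA2, HOXB1, HOXB7, HOXC13 and HOXD13) and 3 lower (HOXB8, HOXC8 and HOXC9) after treatment, against 27.8% of all probe sets. In SK-N-AS this held for HOXC11 alone, lower after treatment, against 7.31% of all probe sets.

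In SK-N-FI the treated mean was above the control mean for 18 of 23 members and below it for 5, with a median change of 0.16 (−0.01 over all probe sets). Of all probe sets 49% were above, and 19 of the members lay below background on every array. With each array left out in turn the 18 became 14 to 16 and the median 0.04 to 0.13. In SK-N-AS 13 were above and 10 below (49.2% of all probe sets were above), with a median of 0.03. The count above became 11 without control array 26 and 17 without control array 25. None of these changes passed the test.

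The interaction term asked whether the effect differed between the lines. It called 0 of 23 members and 0% of all probe sets, and 0 members had an unadjusted p below 0.05 (2.13% of all probe sets did). The largest differences of effects by p (SK-N-AS effect minus SK-N-FI effect) were 0.48 for HOXC8 (95% interval −0.15 to 1.11), −0.48 for HOXD13 and −0.39 for HOXC11, each with limma adjusted p = 1.00. For HOXD8, at 0.16 and −0.18 in the 2 lines, the difference did not pass either. No gene of the cofactor, chromatin, regulator, homeobox, noncoding or neighbour lists was called after treatment in either line.

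**Figure D4:**
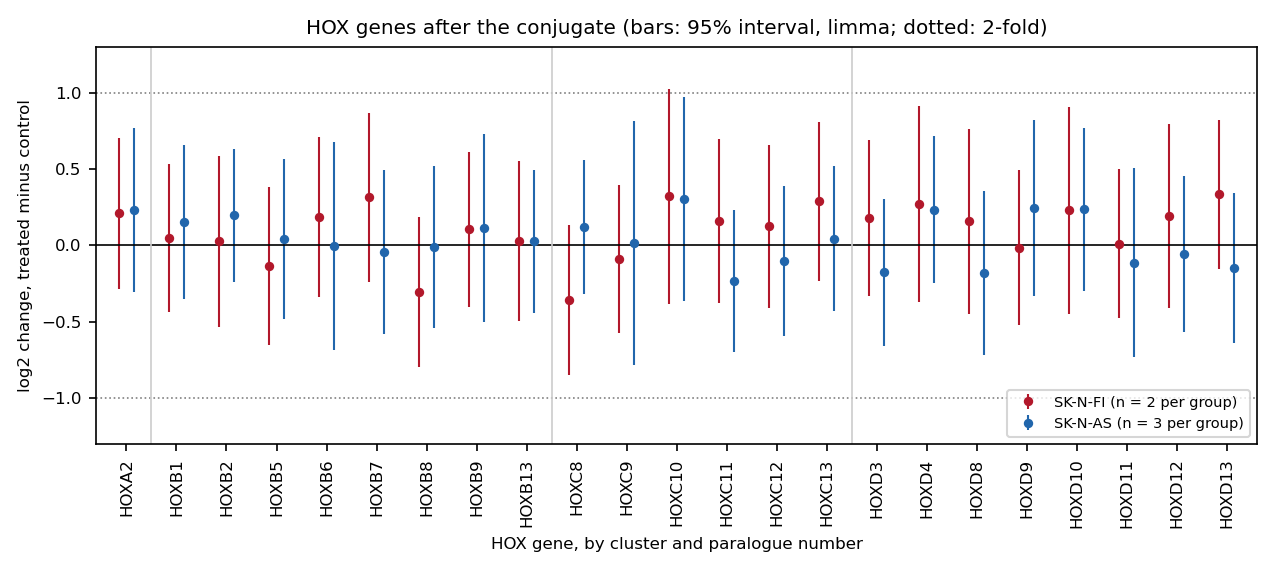
Log2 change of each HOX gene, treated minus control, with limma's 95% interval, in SK-N-FI (red, n = 2 per group) and SK-N-AS (blue, n = 3 per group), and dotted lines at a 2-fold change. Every interval includes 0, and only that of HOXC10 in SK-N-FI passes a dotted line, with an upper end of 1.02.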

How the data were processed

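Total RNA was extracted with Trizol and labelled with biotin by the whole-transcript sense target protocol, per the labels' protocols. The values deposited by the authors are log2 signals per probe set, for which the submitters' processing notes list RMA and, with no role given, Transcriptome Analysis Console 4.0.1.36. RMA would take out a shift common to most genes. Array medians differ by line, and the cause of that offset was not tested. The design text speaks of 3 SK-N-FI replicates, and 2 per condition were analysed here.

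Of 24351 probe sets, 2903 were controls (612 negative controls) and 21448 were tested. A symbol was given for 17709, and 3739 were unnamed. All 23 HOX identifiers matched RefSeq. Arrays have no count of depth, and their number limits precision. No arrays held identical values.

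limma 3.58.1 in R 4.3.3 (lmFit, eBayes, no covariate) compared treated with control arrays within each line, and a fit of 10 arrays in 4 groups gave the interaction and the line comparison. Benjamini-Hochberg adjustment ran over all 21448 probe sets, and intervals are at 95%. The fits were tested on simulated data with changes larger than any HOX change after treatment. That test says nothing on changes as small as these. Same-numbered SK-N-FI arrays did not deviate together (correlation −0.171), so the numbers were not taken as pairs.

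Values per array are given for members above background on every array of a line. Treatment names the 3 members with the smallest p per contrast, and the line comparison names called members above background whose lines do not overlap. Of other lists, up to 6 called members above background, by size of difference, could be named. Members, lists and rules were chosen with earlier results of these data known.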

Additional observations from a re-analysis of the deposited data

How the results depend on the processing

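The 0 calls after treatment and in the interaction held under these alternatives: trend and robust eBayes, array weights, quantile and negative control scaling, a filter on dim probe sets, and each array left out in turn. The 0 calls after treatment in SK-N-AS also held without arrays 25 and 28, an alternative chosen after seeing the data. The array number as a replicate block in SK-N-FI called 0 members, and so did the crossed pairing, also chosen after seeing the data. Each symbol has 1 probe set, so using every probe set of a symbol gives no other value. Between control arrays, the 9 genes higher in SK-N-FI became 4 when only probe sets above background were fitted, which takes out the dim ones by construction. The 3 genes higher in SK-N-AS became 5 after quantile normalization, 0 with only probe sets above background, 1 on treated arrays, 0 with a 2-fold minimum, and 0 to 3 with each array left out in turn. HOXD8 reversed after quantile normalization, to 0.79, and the cause was not tested. The 4 and 1 genes above background became 0 and 0 with the 99th percentile, SK-N-AS became 0 with the median plus 3 MAD, and 2 with at least 1 array in place of all. Over the alternatives, named genes called between control arrays kept direction and call in 141 cases and lost the call in 18, 5 of these under the 2-fold minimum (HOXD8, HOXB7, HOXB8, HOXC11 and HOXD13). Probe sets under the threshold show a signal that may hold no transcript.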
